A study of Mus musculus with 18 samples.

Results

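The comparison described here sets mature interstitial macrophages (matIMs) against monocyte-derived macrophages (moMs) in mice with a knockout of ezrin directed at monocytes and macrophages. These populations are the end and the start of the maturation series of the study in that genotype. The comparison holds 6 libraries of Ezr-KOm mice, 3 of moMs and 3 of matIMs. They are part of 18 libraries in the series. The series also holds transitional interstitial macrophages (tnsIMs, trIM in the labels) and the same populations of WT mice, with 3 libraries each. All mice were on the C57BL/6 background and 3 to 5 months old, of both sexes, and had inhaled nebulized LPS of Pseudomonas aeruginosa (12.5 mg in 5 ml of PBS over 15 min) 24 h before the lungs were taken. Ezr-KOm mice carried floxed Ezr together with Cx3cr1-driven Cre, and WT mice carried the same Cre without floxed Ezr, so both genotypes have the Cre allele and deletion is limited to cells that have expressed Cx3cr1. Cells were sorted as CD45+CD11b+MHC-II-Ly6C+ (moMs), CD45+CD11b+MHC-II+Ly6C+ (tnsIMs) and CD45+CD11b+MHC-II+Ly6C- (matIMs). In the study's methods these gates were applied to CD11c- cells after granulocytes had been set apart by CD24 and MHC-II, while alveolar macrophages and dendritic cells were taken from CD11c+ cells. The gate therefore fixes the direction of the MHC class II surface molecules and of the Ly6c genes, and these are described below without a test.

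Ezrin, radixin and moesin form the ERM family, which links membrane proteins such as CD44 and ICAMs to cortical actin and is engaged in cell shape, adhesion and migration. Monocytes that enter the inflamed lung lose monocyte genes such as Ly6c2 and take up the features of tissue macrophages, among them antigen presentation on MHC class II, uptake of dead cells and local production of chemokines. Cells that carry CD11b and MHC class II in the lung also include dendritic cells, which share much of this program and move to lymph nodes through CCR7. The CD11c gate of the study would remove dendritic cells and alveolar macrophages that carry CD11c.

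Total counts ranged from 22505766 to 27709052 in the 6 libraries, and the 10 most abundant genes took 8.23% to 9.54% of a library. Of 21254 genes, 15811 passed the filter on low counts and were tested, and 5443 were not tested. Levels are CPM (counts scaled to a common library size) after TMM normalization and are listed in the order of replicates 1, 2 and 3. Within a genotype, libraries with the same number deviated from their group means together. The labels give replicate numbers and do not name the mouse. Same-numbered libraries were treated as coming from 1 mouse in the fit with mouse as a block. Means are ± SD over 3 libraries, log2 fold changes (matIM over moM) are ± SE, and a gene was called where the quasi-likelihood test of edgeR gave a p under 0.05 after Benjamini-Hochberg adjustment over all tested genes. The sizes after "rose by" and "fell by", and values in brackets beside gene names, are log2 fold changes. CPM is not scaled to gene length, so it compares libraries and not genes.

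Ezr (ENSMUSG00000052397, chromosome 17, 7005440 to 7050183, minus strand, GRCm39) was measured first, as the targeted gene. It was at 282, 160.0 and 252 CPM in moMs and 167, 93.8 and 144 CPM in matIMs of Ezr-KOm mice. In WT mice it was at 504, 593 and 497 CPM in moMs and 741, 632 and 611 CPM in matIMs, so that each Ezr-KOm library lay below each WT library of the same population, with a remainder of Ezr reads in both populations. The deposited counts cover the whole gene, so reads from exons outside the floxed part are included and the share of cells with deletion cannot be read from them. Within Ezr-KOm mice, Ezr was lower in the matIM than in the moM library of each replicate number. The groups overlapped, as replicate 2 of moMs lay below replicate 1 of matIMs. The gene fell with a log2 fold change of -0.78 ± 0.24 (adjusted p = 0.0239). That call was lost without moM replicate 1 (adjusted p = 0.114), without moM replicate 3 (adjusted p = 0.0834), without matIM replicate 2 (adjusted p = 0.125), and when the 9 Ezr-KOm libraries were fitted alone (adjusted p = 0.0667). With mouse as a block, its log2 fold change was -0.78 ± 0.11 (adjusted p = 5.64e-05). The other ERM genes did not pass the test. Rdx was at 78.5, 64.2 and 76.99 CPM in moMs and 88.8, 93.7 and 68.3 CPM in matIMs. Msn was at 2613, 2401 and 2852 CPM in moMs and 2379, 2276 and 2181 CPM in matIMs, with every Msn level of matIMs below those of moMs and overlapping groups for Rdx. Their log2 fold changes were 0.19 ± 0.16 and -0.20 ± 0.14.

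**Figure D1:**
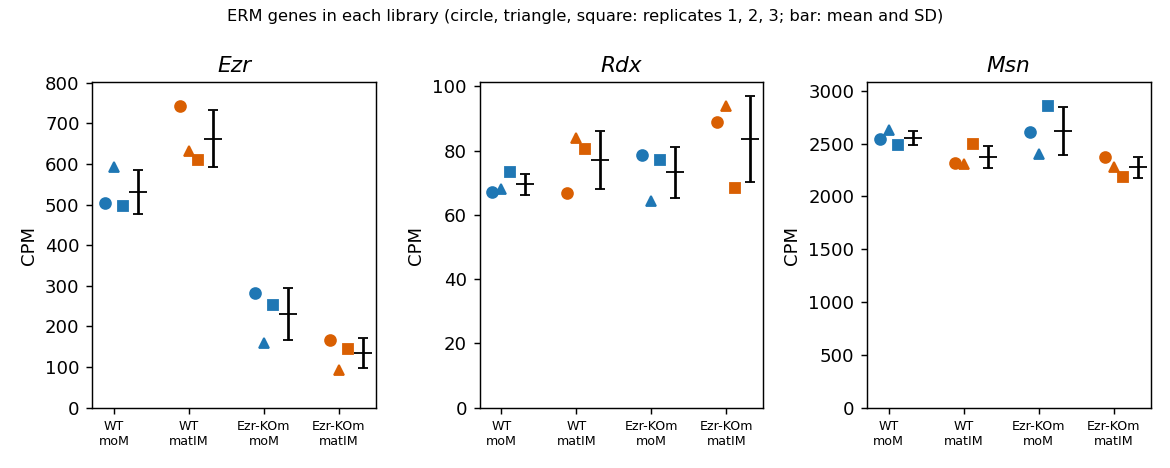
CPM (linear axes from 0) of Ezr, Rdx and Msn in the 12 libraries of moMs and matIMs. Points are libraries, with marker shape for the replicate number, and the bars give mean and SD of 3 libraries. Ezr sits lower in the 6 Ezr-KOm libraries than in the 6 WT libraries, and the ranges of Rdx and Msn overlap between the genotypes.

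Between moMs and matIMs of Ezr-KOm mice, 3679 genes were called, 23.3% of those tested, of which 1984 rose (12.5%) and 1695 fell (10.7%). In sorted bulk samples, fewer cells of a type and less RNA per cell cannot be told apart. Large changes were more often rises. A fitted change beyond log2 1 was seen in 1506 called genes that rose and 845 that fell, and beyond log2 3 in 594 and 77. The called genes include 156 with 0 counts in the moM libraries and 8 with 0 counts in the matIM libraries, for which the fitted size depends on the prior count. The median over all tested genes was 0.007. Protein-coding genes made up 1685 of the rises and 1580 of the falls, lncRNA genes 101 and 74, and 148 of the rises were immunoglobulin gene segments. Of the called genes, 3609 had non-overlapping groups, against 39.9% of all tested genes (6314). In 2803 of the called genes (1588 that rose and 1215 that fell) the mean of the Ezr-KOm tnsIMs lay between those of moMs and matIMs, while in 501 it was above and in 375 below both ends. Called genes were chosen by a difference between the ends, which by itself favours a mean between them. The share over all tested genes was not taken, so these counts have no background beside them. With mouse as a block, 4783 genes were called (2459 rose and 2324 fell), and 3667 of the 3679 kept their call and direction. Fewer kept both under other settings. They numbered 3228 with libraries scaled by totals, 3378 with the 6 libraries alone, 3280 with the 9 Ezr-KOm libraries and 2850 to 2959 without 1 library. When libraries were scaled by their totals only, 66.1% of calls were rises in place of 53.9%, with the median of all tested genes at 0.132.

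Called genes with non-overlapping groups and a mean of at least 10 CPM in the higher group were ranked, leaving out immunoglobulin and T cell receptor segments, pseudogenes and genes with clone names. Some immunoglobulin segments rose by more than any gene of this ranking and are described with the B cell markers below. The 15 largest rises of the ranking were of genes with low levels in moMs. Pla2g4f, a cytosolic phospholipase A2, was at 0, 0 and 0.0441 CPM in moMs and 25.2, 66.3 and 34.3 CPM in matIMs. The moM level rests on 1 count in all, and the ratio of matIMs to moMs was 3003 (95% counting interval 539 to 118600). Fscn1, the actin-bundling protein fascin, was at 1.17, 2.01 and 1.498 CPM in moMs and 939.9, 1195 and 1036 CPM in matIMs (log2 fold change 9.39 ± 0.41). For both genes each matIM library was far above each moM library. Cacnb3, a subunit of voltage-gated calcium channels, went from 0.291 ± 0.327 CPM in moMs to 263 ± 59.3 CPM in matIMs, and Apol7c, of the apolipoprotein L family, from 0.171 ± 0.153 CPM in moMs to 101 ± 23.02 CPM in matIMs. Ccl22, a ligand of CCR4, had the smallest p of all genes that rose. It was at 10.7, 5.98 and 11.99 CPM in moMs and 3290.5, 2891 and 2666 CPM in matIMs, with a log2 fold change of 8.27 ± 0.28 (adjusted p = 1.06e-12). Cxcl13, the ligand of CXCR5 that attracts B cells, was at 2.26, 1.85 and 1.41 CPM in moMs and 297, 806 and 759 CPM in matIMs, with replicate 1 of matIMs well below the other two. Aldh1a2, which makes retinoic acid from retinal, was at 1, 0.771 and 0.132 CPM in moMs and 169.9, 185 and 162 CPM in matIMs (log2 fold change 8.06). Timd4, a receptor for phosphatidylserine on dying cells, was at 0.087, 0.0771 and 0 CPM in moMs and 31.7, 31.1 and 23.2 CPM in matIMs (log2 fold change 8.88 ± 0.48). The others of these 15 rises were Jchain (8.83) and Pou2af1 (7.32), which belong to B and plasma cells, the metalloprotease-family genes Adam23 (8.24) and Mmp23 (7.34), the lectin-like receptor gene Klri1 (7.63), the non-classical MHC class I gene H2-M2 (7.23) and the delta-catenin gene Ctnnd2 (7.19), all as log2 fold changes.

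Among the 10 rises of the ranking with the smallest p were also genes of vesicle traffic, lipid sensing and tryptophan breakdown. Tbc1d4, a Rab GTPase-activating protein of vesicle traffic, was at 6.87, 6.05 and 7.01 CPM in moMs and 309, 372 and 222 CPM in matIMs. P2ry10, a receptor for lysophospholipids, was at 4.74, 4.05 and 3.92 CPM in moMs and 115, 126 and 106 CPM in matIMs. Kmo, an enzyme of the kynurenine pathway of tryptophan breakdown, was at 9.66, 8.18 and 10.7 CPM in moMs and 172, 179 and 211 CPM in matIMs. The 3 matIM libraries were above the 3 moM libraries for each of these genes, and the log2 fold changes were 5.50, 4.77 and 4.30 (adjusted p = 2.79e-12, 8.93e-12 and 5.47e-11).

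The 15 largest falls of the same ranking were smaller than its 15 largest rises. Cd177, a surface glycoprotein of neutrophils, was at 455, 426 and 593 CPM in moMs and 6.31, 17.7 and 15.3 CPM in matIMs (log2 fold change -5.23 ± 0.37, adjusted p = 7.12e-09). Chil3, which encodes the chitinase-like protein Ym1, was at 4888, 7521 and 8342 CPM in moMs and 238, 396 and 265 CPM in matIMs. Thbs1, the matrix glycoprotein thrombospondin 1, was at 4233, 4016 and 3374 CPM in moMs and 235, 343 and 159 CPM in matIMs. No matIM library reached any moM library for these genes. Vcan (versican) went from 166 ± 19.8 CPM in moMs to 6.199 ± 2.67 CPM in matIMs, F13a1 (the A subunit of clotting factor XIII) from 2256 ± 600.4 CPM in moMs to 184 ± 91.6 CPM in matIMs and F5 (clotting factor V) from 33.7 ± 5.68 CPM in moMs to 1.22 ± 0.355 CPM in matIMs. Mmp8 (neutrophil collagenase) fell from 326 ± 90.8 CPM in moMs to 15.1 ± 7.699 CPM in matIMs and Prtn3 (proteinase 3) from 10.9 ± 1.801 CPM in moMs to 0.487 ± 0.307 CPM in matIMs. Also among these 15 falls were the phospholipase C gene Plcb1 (-3.79), the kinase gene Bmx (-4.40), the small GTPase genes Rab36 (-4.40) and Rhou (-3.71) and the exchange factor gene Arhgef37 (-4.57). Pi16, a peptidase inhibitor, and Cyp39a1, an oxysterol hydroxylase, changed by -3.59 and -3.54 on the log2 scale.

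Hp, which encodes haptoglobin, had the smallest p of all genes that fell. It was at 837, 855 and 1127 CPM in moMs and 85.8, 95.1 and 97.6 CPM in matIMs (log2 fold change -3.34 ± 0.15, adjusted p = 2.25e-11), with the 3 matIM libraries close together and far below the moM libraries. Mgst1, a microsomal glutathione transferase, was at 166, 135 and 188 CPM in moMs and 14.1, 16.9 and 16.9 CPM in matIMs. Smpdl3a, a sphingomyelinase-like phosphodiesterase, was at 534, 524 and 609 CPM in moMs and 111, 111 and 112 CPM in matIMs. Ms4a8a (-2.39) and Tmem38b (-1.95), a cation channel of the endoplasmic reticulum, completed the 10 falls of the ranking with the smallest p beside genes already named, and the groups of these 5 genes did not overlap.

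**Figure D2:**
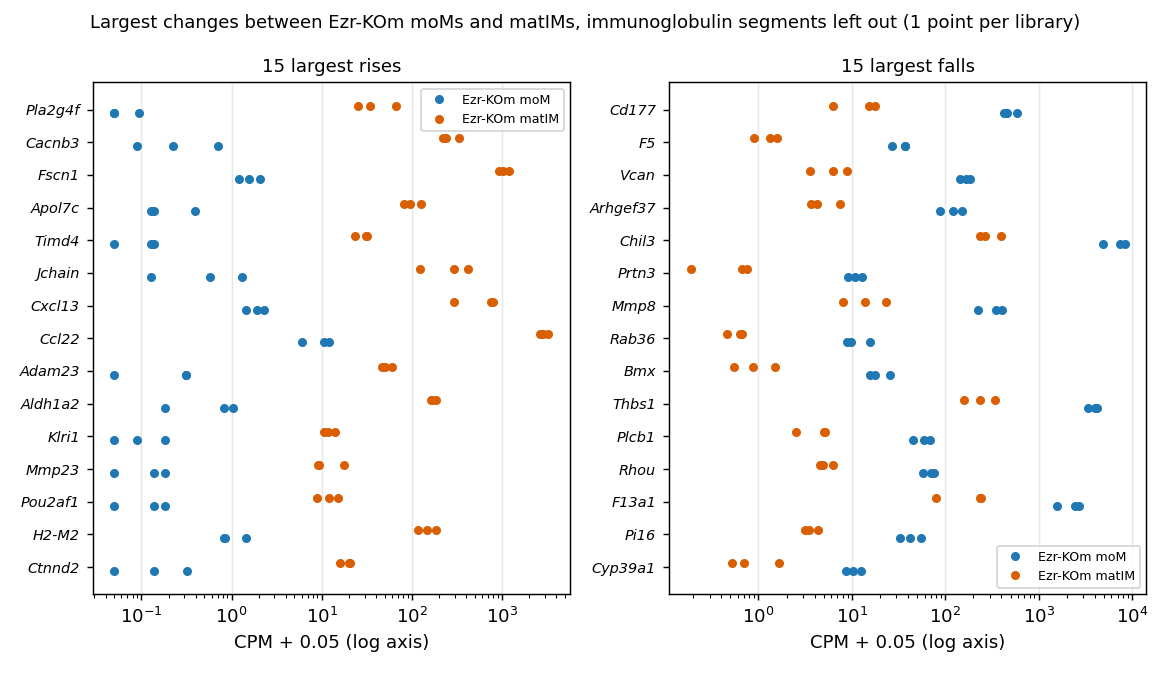
CPM plus 0.05 on log axes for the 15 largest rises (left) and the 15 largest falls (right) of the ranking in Ezr-KOm mice, which leaves out immunoglobulin segments, with 1 point per library. The matIM points are right of the moM points for each of the 15 rises and left of them for each of the 15 falls, with a wider gap for the rises.

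Every tested gene of MHC class II presentation was called. MHC class II molecules show peptides from taken-up protein to CD4 T cells, H2-DM and H2-O load them, CD74 guides them and CIITA switches their genes on. Of 13 members, 12 rose and 1 fell, with a median log2 fold change of 3.43 beside 0.007 over all tested genes, a count that includes the chains of the gate. The classical chains were part of the gate and are given as levels. H2-Aa was at 528, 385 and 741 CPM in moMs and 6778, 5949 and 7027 CPM in matIMs, H2-Ab1 at 1339.5, 984 and 1776 CPM in moMs and 14676, 14662 and 14703 CPM in matIMs and H2-Eb1 at 232, 167 and 290.3 CPM in moMs and 6136, 4743 and 6225 CPM in matIMs. The moM libraries were thus not at 0 for these genes, and reads of similar H2 copies may be divided between them. H2-DMb2, a chain of the peptide loader H2-DM, was at 18.4, 13.6 and 19.8 CPM in moMs and 439.9, 412 and 433 CPM in matIMs (log2 fold change 4.63 ± 0.17, adjusted p = 2.63e-12). H2-Oa and H2-Ob, whose product tempers H2-DM and is abundant in B cells, rose by 5.72 and 4.54 on the log2 scale, and the master regulator gene Ciita rose by 2.51 ± 0.31. The list member that fell was Ctss, the protease that trims the CD74 chain (-0.49 ± 0.13, adjusted p = 0.00714). The levels of immunoglobulin segments and B cell markers, given below, moved with these genes, and their part in the rise of the H2 genes was not tested.

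The promoters of the MHC class II genes carry the Y box, an inverted CCAAT element next to the X box. CTGATTGG, the letters searched for it on both strands, stood within 250 bases before the start of the canonical transcript in 4 of the 13 members (30.8%), H2-Aa, H2-Ab1, H2-Eb1 and H2-Eb2, and in 4.81% of 13212 promoters of tested protein-coding genes. The 4 stretches are shown because they belong to genes at the centre of the gate and the list. Each is read 5' to 3' on the strand of its gene from GRCm39, with the matched letters in capitals.
H2-Aa, chr17:34506821-34506888, minus strand: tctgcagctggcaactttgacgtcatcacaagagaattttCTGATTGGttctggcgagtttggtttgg
H2-Ab1, chr17:34482113-34482180, plus strand: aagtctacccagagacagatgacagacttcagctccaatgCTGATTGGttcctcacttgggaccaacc
H2-Eb1, chr17:34524739-34524806, plus strand: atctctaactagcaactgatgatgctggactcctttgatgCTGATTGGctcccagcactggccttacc
H2-Eb2, chr17:34544506-34544573, plus strand: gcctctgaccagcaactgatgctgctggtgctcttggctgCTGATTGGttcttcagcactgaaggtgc
Between the match and the annotated start lay 43 bases in H2-Aa, 22 in H2-Ab1, 26 in H2-Eb1 and 79 in H2-Eb2. Of the other letters searched, GAAA, any 2 bases and GAAA (an interferon-response element) stood in 13 of 35 promoters of interferon-stimulated genes (37.1%, against 3.28% of all), GGG, any 2 bases and TTTCC (a kappaB site) in 1 of 25 migratory dendritic cell genes (4%, against 1.52%) and TTGCNNAA (a C/EBP site) in 2 of 26 monocyte genes (7.69%, against 8.23%). Among all promoters of genes that rose and that fell, the Y box letters stood in 5.16% and 3.54%.

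Costimulation and checkpoint ligands, which tune the T cell response to presented peptide, rose in 10 and fell in 3 of 16 tested members (median log2 fold change 0.94). Cd200, a ligand that restrains myeloid cells, had the smallest p and was at 21.4, 17.4 and 16.9 CPM in moMs and 107, 131 and 87.6 CPM in matIMs, with the groups apart. Nectin2, Pdcd1lg2 (PD-L2) and Icosl rose by 2.15, 3.11 and 1.61 on the log2 scale. The classical costimulators changed less. Cd86 was at 246, 163 and 192 CPM in moMs and 459.6, 366 and 371 CPM in matIMs, and Cd40, Cd80 and Cd86 rose by 1.12, 0.69 and 0.99. Cd70 had 0 counts in the 3 moM libraries and was at least 32.0-fold higher in matIMs, against a floor of 3 counts per library. The ligands that fell were Cd276, Vsir and Lgals9 (-1.17, -1.48 and -0.62, the last close to the threshold at an adjusted p of 0.0497), and Cd274 (PD-L1) did not pass the test (0.60 ± 0.34, adjusted p = 0.243) without mouse as a block and was called as a rise with it (adjusted p = 0.0384).

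Of 33 tested TNF superfamily ligands and receptors, 15 rose and 8 fell (median log2 fold change 0.35). The T cell costimulatory receptors Tnfrsf9 (4-1BB), Tnfrsf4 (OX40) and Tnfrsf18 (GITR) rose by 5.08, 4.83 and 3.46 on the log2 scale, and Tnfrsf9 was at 4.18, 0.771 and 2.51 CPM in moMs and 73.4, 106 and 71.98 CPM in matIMs. Tnfrsf13c, the BAFF receptor of B cells, rose by 5.56 from 0.184 ± 0.105 CPM in moMs to 8.82 ± 1.49 CPM in matIMs. The lymphotoxin genes Lta and Ltb rose by 1.33 and 2.59. Tnf itself was at 947, 593 and 443 CPM in moMs and 768, 532 and 304 CPM in matIMs with overlapping groups and did not pass the test (-0.31 ± 0.35, adjusted p = 0.612), and its receptor genes Tnfrsf1a and Tnfrsf1b fell by 1.25 and 0.99 on the log2 scale.

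Genes of migratory dendritic cells rose in 22 and fell in 1 of 25 members (median log2 fold change 2.67), and conventional dendritic cell markers rose in 18 of 22 and fell in 0 (median 2.5). Ccr7, the receptor that guides cells to lymph nodes, was at 28.3, 14 and 14.7 CPM in moMs and 2418, 2132 and 1859.5 CPM in matIMs (log2 fold change 6.81 ± 0.31, adjusted p = 2.25e-11). Zbtb46, a transcription factor of classical dendritic cells, was at 4.13, 3.36 and 3.13 CPM in moMs and 117, 147 and 108 CPM in matIMs. Both genes had matIM libraries above each moM library, as had Fscn1, Ccl22 and Tbc1d4 of the same lists, described above. Mgl2, a galactose-binding lectin, was at 5.48, 9.18 and 5.86 CPM in moMs and 278, 218 and 315 CPM in matIMs, and Klrd1 (CD94) rose by 4.89 on the log2 scale. Flt3, the receptor for the growth factor of dendritic cells, and Dpp4 rose by 2.05 and 2.23. Xcr1, a marker of cross-presenting dendritic cells, was at 10.4, 5.63 and 4.76 CPM in moMs and 5.77, 4.33 and 4.32 CPM in matIMs and did not pass the test, and neither did Irf8 (0.03 ± 0.25), Cd24a or Tlr3. Birc3 was the list member that fell (-0.47), a call lost with libraries scaled by totals only. Of 9 tested plasmacytoid dendritic cell markers, 3 rose and 0 fell (33.3% called, beside 23.3% of all tested genes). They were Spib and Ly6d (5.48 and 5.61), which B cells also express, and Pacsin1 (2.71), while Siglech (1.54 ± 0.72), Ccr9 and Tcf4 did not pass. Siglech was called as a rise with the 6 libraries or the 9 Ezr-KOm libraries alone.

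Against this, the markers of interstitial macrophages did not move as a group. Of 22 members, 7 rose and 9 fell (median log2 fold change -0.20). Cd81, a tetraspanin, was at 17.01, 13.8 and 11.02 CPM in moMs and 137, 191 and 164 CPM in matIMs, and the complement C1q genes C1qa, C1qb and C1qc rose by 1.59, 1.11 and 1.54 on the log2 scale. C1qa was at 108, 139 and 67.4 CPM in moMs and 295, 316 and 338 CPM in matIMs, with the groups apart. The macrophage transcription factor gene Maf and the lipid-sensing receptor gene Trem2 fell. Maf was at 32.8, 28 and 26.4 CPM in moMs and 8.46, 12.01 and 10.2 CPM in matIMs (log2 fold change -1.51 ± 0.18, adjusted p = 5.79e-06), and Trem2 fell by 1.81. The CSF1 receptor gene Csf1r fell by 0.95, Fcgr1 (CD64) by 1.29 and Mertk by 0.72, while Cx3cr1 (-0.68 ± 0.28) and Adgre1 (F4/80, -0.23 ± 0.20) did not pass the test. With mouse as a block Cx3cr1 was called (adjusted p = 0.0295), as it was with the 6 libraries or the 9 Ezr-KOm libraries alone and without matIM replicate 3. The summed level of the list was 8580, 8492 and 8151 CPM in moMs and 4707, 5265 and 5796 CPM in matIMs. The label of the matIMs thus goes with C1q, Cd81, Pltp, Ms4a7 and Mrc1 and not with Maf, Csf1r, Mertk and Fcgr1, and the dendritic cell lists rose in the same libraries. The population is called by its sort throughout.

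The classical monocyte list, which includes Ly6c2 and Ly6c1 of the gate, fell in 24 of 26 members and rose in 0. The median log2 fold change was -1.68. The summed level of the list was 35556, 38583 and 38737 CPM in moMs and 9958, 9960 and 7792 CPM in matIMs. Ly6c2 and Ly6c1, which are near-identical copies and belong to the gate, had mean levels that went from 474 ± 95.03 CPM in moMs to 47.5 ± 25.5 CPM in matIMs and from 28.4 ± 5.67 CPM in moMs to 9.33 ± 2.35 CPM in matIMs. Ccr2, the receptor by which monocytes leave the bone marrow, was at 1242, 1550.1 and 1786 CPM in moMs and 592, 756 and 641 CPM in matIMs, and fell by 1.20 on the log2 scale. The decoy receptor gene Il1r2 (0.64 ± 0.24) and Fpr1 (-0.61 ± 0.29, adjusted p = 0.00558 as a fall with mouse as a block) did not pass the test, and Il1r2 was called as a rise without matIM replicate 3, with mouse as a block, by DESeq2, with libraries scaled by totals only, or in the fits with fewer groups. Fpr1 was also called as a fall without moM replicate 1. Genes that sense LPS and other microbial products fell in 11 and rose in 2 of 22 members (median -0.60). Cd14, the LPS co-receptor, was at 9056, 8762 and 8589 CPM in moMs and 3509, 3385 and 2896 CPM in matIMs, and Tlr4 at 78.3, 78.9 and 135 CPM in moMs and 26.8, 28.6 and 25.1 CPM in matIMs. Every matIM library was below every moM library for both. Lbp, Tlr7 and Tlr2 fell by 3.01, 1.75 and 1.04, and Tlr1 (-0.28 ± 0.18) and Tlr3 (0.57 ± 0.29) did not pass. Tlr11 and Tlr12 were the members that rose (1.99 ± 0.58 and 2.67 ± 0.74). Without moM replicate 2 neither was called, and without moM replicate 1, moM replicate 3 or matIM replicate 2, 1 of them was called.

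Among 16 tested Fc and complement receptors 9 fell and 4 rose (median log2 fold change -0.55). The anaphylatoxin receptor C5ar1 was at 1035, 969 and 913 CPM in moMs and 242, 268 and 196 CPM in matIMs (log2 fold change -2.05 ± 0.16, adjusted p = 3.11e-08). Cd93, Fcgr1, Fcgr3 and Fcgr2b fell by 2.31, 1.29, 1.27 and 0.52. The receptors that rose were Fcgrt and Itgax (1.22 and 0.95) and the receptors of B cells Cr2 and Fcer2a (5.44 and 4.34). Of 12 tested complement components, 3 rose and 4 fell. C1qa, C1qb and C1qc, which start the classical pathway, were the 3 that rose, and C3 and C4b, which are cleaved further down, fell, with log2 fold changes of -1.80 and -3.08. C3 was at 643, 533 and 507 CPM in moMs and 198, 142 and 145 CPM in matIMs.

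Of 28 tested chemokine ligands, 7 rose and 7 fell (median log2 fold change 0.02), and with mouse as a block 12 rose and 9 fell. Ccl17, which shares the receptor CCR4 with Ccl22, was at 29.7, 12.9 and 54.2 CPM in moMs and 1464, 1438 and 1714 CPM in matIMs. Cx3cl1 (fractalkine), the ligand of CX3CR1, was at 4.48, 2.66 and 5.16 CPM in moMs and 67.3, 88.96 and 77.8 CPM in matIMs. Cxcl13, Ccl22, Ccl17 and Cx3cl1 had the smallest p among the ligands, and Ccl5, Ccl8 and Cxcl16 rose too (3.38, 3.87 and 1.36). The monocyte attractant Ccl2 fell, at 1631, 1580.5 and 1449 CPM in moMs and 541, 491 and 566 CPM in matIMs (log2 fold change -1.54 ± 0.22). Ccl7, Ccl12, Ccl6 and Cxcl2 fell by 0.96, 1.14, 1.32 and 1.16, and Ccl3 did not pass the test (-0.39 ± 0.22) but was called as a fall with mouse as a block (adjusted p = 0.0479). The members called as rises with the block and not without it were Cxcl9, Cxcl11, Pf4, Cxcl14 and Ccl20. Pf4 was called as a rise without moM replicate 2 as well, and Ccl20 with libraries scaled by totals only, with only the 9 Ezr-KOm libraries, with DESeq2, without moM replicate 1 and without matIM replicate 2. Of 21 tested chemokine receptors, 6 rose and 6 fell. Beside Ccr7, Cxcr5, a chemokine receptor of B cells, rose by 4.57 on the log2 scale, from 1.21 ± 0.335 CPM in moMs to 29.03 ± 2.63 CPM in matIMs, and Ccr6 rose by 3.16, while Ccr1 fell by 1.61 and Ccr2 by 1.20. Ccr3 was below 1 CPM in both groups on average and did not pass (0.81 ± 0.81).

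Inflammatory cytokines and enzymes fell in 12 and rose in 2 of 28 members (median log2 fold change -0.65). Arg1, an enzyme that uses up arginine, was at 422, 665 and 267 CPM in moMs and 63.9, 53.3 and 25.3 CPM in matIMs (log2 fold change -3.25 ± 0.39, adjusted p = 5.16e-06). Il6 was at 409, 558 and 676 CPM in moMs and 206, 179 and 182 CPM in matIMs and Osm (oncostatin M) fell by 1.35 on the log2 scale. For both Arg1 and Il6 the matIM libraries lay below the moM libraries. Il1b, among the most abundant of these genes, was at 10529, 9646 and 9875 CPM in moMs and 7577, 5633 and 6549 CPM in matIMs (-0.60 ± 0.17, adjusted p = 0.0114), and its antagonist gene Il1rn fell by 0.66, while Il1a did not pass the test (-0.68 ± 0.29, adjusted p = 0.108) and was called as a fall with mouse as a block (adjusted p = 0.0014) or without matIM replicate 1 (adjusted p = 0.0343). The 2 members that rose were Il12b, the subunit shared by IL-12 and IL-23, and Ebi3, a subunit of IL-27. Il12b was at 38.8, 14.3 and 48.7 CPM in moMs and 607, 402 and 275 CPM in matIMs, and its partner gene Il12a fell by 1.32. Of 22 NF-kappaB genes, 6 rose and 4 fell (median -0.11), and 6 rose and 1 fell when libraries were scaled by totals only. Without moM replicate 1, matIM replicate 1 or matIM replicate 2 the falls numbered 2. The noncanonical subunit gene Relb was at 151, 116 and 105.1 CPM in moMs and 288, 326 and 287 CPM in matIMs (log2 fold change 1.28 ± 0.14, adjusted p = 1.33e-06). Nfkb1 and Traf2 rose by 0.80 and 0.79, Ikbke fell by 1.13, and Rel (0.19 ± 0.29) and Rela (-0.22 ± 0.11) did not pass.

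Interferon-stimulated genes had their lowest summed level in replicate 2 in both populations. Of 37 tested members, 0 rose and 3 fell, so that 8.11% were called, beside 23.3% of all tested genes. The median log2 fold change was -0.17. The summed level of the list was 8196, 3875 and 6811 CPM in moMs and 6499, 3817 and 5537 CPM in matIMs. These sums overlapped between the populations. With mouse as a block, 11 fell and 4 rose. The members that fell in the fit without the block were Oas2, Ifi204 and Oas3, sensors of viral nucleic acid (-0.91 ± 0.23, -1.17 ± 0.33 and -0.81 ± 0.29). Cmpk2 missed the threshold at an adjusted p of 0.05003 and had an adjusted p of 9.70e-05 with the block. It was also called as a fall by DESeq2, with no filter, without moM replicate 2 and without matIM replicate 3. The 4 that rose with the block were Ifi44, Gbp2, Oasl1 and Ifit3b, with blocked log2 fold changes of 0.77, 0.59, 0.35 and 0.46. Ifit1, Ifit2 and Ifit3 did not pass (0.08 ± 0.32, -0.20 ± 0.40 and 0.07 ± 0.37). Without moM replicate 1 the counts were 1 rise and 1 fall, without moM replicate 2 there were 6 falls, and without matIM replicate 2 there was 1 fall.

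Receptors for the uptake of particles and dying cells were divided. Of 22 tested scavenger and efferocytosis genes, 8 rose and 11 fell (median log2 fold change -0.50). Beside Timd4, the scavenger receptor gene Marco was at 3.697, 6.17 and 3.31 CPM in moMs and 66.5, 159.9 and 142 CPM in matIMs and Cd36 rose by 0.97. The receptor tyrosine kinase gene Axl rose (1.02) and its relative Mertk fell (-0.72). Msr1, the class A scavenger receptor, was at 948, 1120.5 and 1032 CPM in moMs and 274, 323 and 273 CPM in matIMs (log2 fold change -1.83 ± 0.15, adjusted p = 3.67e-08), and Lrp1 and Itgb5 fell by 1.66 and 1.19. The C-type lectins split in 8 rises and 8 falls among 21 tested members. Mgl2, Cd209d, Clec10a and Clec4b1 rose by 5.30, 5.25, 2.98 and 2.14, Clec1a fell by 1.13, and Clec1b and Clec2d did not pass. The Cd209 genes are a family of similar copies, whose reads the counting may have divided. Lysosomal hydrolases and cathepsins fell in 15 and rose in 2 of 29 members (median -0.46). Ctsc, which activates granule proteases, was at 2972, 3180 and 3338 CPM in moMs and 1326, 1338 and 1210.3 CPM in matIMs (log2 fold change -1.29 ± 0.15, adjusted p = 3.45e-06). Lamp2, Ctsl, Man2b1, Ctsb and Ctsa fell by 1.07, 1.45, 0.93, 0.80 and 0.51, and Ctsk, which degrades collagen, rose by 1.99.

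Genes of cholesterol synthesis and efflux rose in 7 and fell in 2 of 22 members (median log2 fold change 0.47), and with mouse as a block in 11 and 2. Without the block, 40.9% of them were called, beside 23.3% of all tested genes. The synthesis gene Dhcr7 rose by 0.69, Hmgcs1 by 0.85, and Ch25h, which makes 25-hydroxycholesterol, by 1.69. Apoe, the carrier of cholesterol, was at 3215, 2948 and 3262 CPM in moMs and 634, 899 and 1188 CPM in matIMs (log2 fold change -1.79 ± 0.25, adjusted p = 3.48e-05). Sqle, an epoxidase of the synthesis, was called with the block (blocked log2 fold change 0.79, adjusted p = 0.00397) but not without it (adjusted p = 0.234). The rises numbered 3 without moM replicate 2 and 2 without matIM replicate 3, and the falls 1 without moM replicate 3 or matIM replicate 1. Glycolysis genes rose in 6 and fell in 6 of 24 members. Pfkp, a phosphofructokinase, was at 524, 405 and 458 CPM in moMs and 1029.9, 841 and 930.4 CPM in matIMs, with the groups apart. Aldoc, Eno2 and the glucose transporter gene Slc2a3 rose by 1.60, 3.03 and 1.61, the lactate exporter gene Slc16a3 and the transporter gene Slc2a1 fell by 1.12 and 0.52, and Hk1 did not pass (-0.08 ± 0.15).

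The adhesion genes bear on ezrin, whose partners at the membrane and at focal contacts they encode. Of 19 tested ERM genes and partners, 1 rose and 6 fell (median log2 fold change -0.23), so that 36.8% were called, beside 23.3% of all tested genes. The falls numbered 4 without moM replicate 3 or matIM replicate 2, and 9 with mouse as a block. Selplg (PSGL-1), the selectin ligand, rose, at 466, 436 and 541 CPM in moMs and 806, 874 and 903 CPM in matIMs (log2 fold change 0.84 ± 0.15, adjusted p = 3.25e-04). Cd44, the hyaluronan receptor bound by ezrin, was at 1438, 889 and 908 CPM in moMs and 660.1, 521 and 426 CPM in matIMs, and fell by 1.01. Icam2, an adhesion molecule, was at 27.2, 24.6 and 21.8 CPM in moMs and 8.43, 6.81 and 11.03 CPM in matIMs, and fell by 1.49. The groups of these 3 genes did not overlap. Add3, Podxl and Ptpn6 fell by 1.21, 2.09 and 0.44 beside Ezr. Icam2 and Podxl are also endothelial genes, and endothelial markers fell in the same libraries (below). Integrins fell in 9 and rose in 5 of 24 tested members (median -0.54). Itgb5 and the collagen receptor chain gene Itga1 fell by 1.19 and 1.87, and Itga8 by 1.87, while Itgae, a chain of dendritic cells and T cells that binds E-cadherin, rose by 3.99 from 0.5999 ± 0.427 CPM in moMs to 9.71 ± 3.07 CPM in matIMs. Itga2b did not pass, and Itga2 was called with mouse as a block (adjusted p = 0.0766 without and 0.0436 with it). Itga2 was also called by DESeq2 and without matIM replicate 3. The CD11b chain of the gate, Itgam, was at 327, 373 and 307 CPM in moMs and 158, 195 and 127 CPM in matIMs, the CD11a chain Itgal at 591, 554 and 714 CPM in moMs and 231, 262 and 256 CPM in matIMs and the CD11c chain Itgax at 339, 275 and 291 CPM in moMs and 727, 551 and 474 CPM in matIMs. Itgam and Itgal were lower and Itgax was higher in every matIM library.

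Of 36 focal adhesion and PI3K/AKT genes, 7 rose and 5 fell (median log2 fold change -0.14), and with mouse as a block 8 rose and 10 fell. Without the block, 33.3% of them were called, beside 23.3% of all tested genes. With libraries scaled by totals only 8 rose and 2 fell, and without matIM replicate 3 the falls numbered 3. Rhof, a GTPase of filopodia, was at 3.04, 3.16 and 4.32 CPM in moMs and 41.9, 38.1 and 35.01 CPM in matIMs (log2 fold change 3.45 ± 0.20, adjusted p = 8.78e-10). Pik3r1, the regulatory subunit p85 of PI3K, was at 83.5, 58.4 and 78.1 CPM in moMs and 219, 181 and 172 CPM in matIMs. Ptk2 (focal adhesion kinase), Src and Fblim1 rose by 1.31, 0.99 and 2.23, and the adaptor genes Pxn (paxillin), Vcl (vinculin) and Tln1 (talin) fell by 0.76, 0.81 and 0.68. The kinase relative Ptk2b did not pass (-0.37 ± 0.17). The catalytic subunit gene Pik3cd fell by 0.82, and Akt1 (-0.19 ± 0.14) and Akt2 (0.18 ± 0.16) did not pass.

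Many cell cycle genes rose. Of 42 S phase genes, 25 rose and 0 fell (median log2 fold change 0.87), and of 54 G2/M phase genes 25 rose and 3 fell (median 1.02). Without 1 library, the rises numbered 18 to 22 in S phase and 18 to 23 in G2/M genes. With at least 10 counts in every library, 19 of 34 S phase genes rose (median 0.75). In that setting 13 of 35 G2/M genes rose (median 0.43). Mcm6, a subunit of the replicative helicase, was at 21.6, 32.9 and 20.7 CPM in moMs and 99.9, 101 and 79.6 CPM in matIMs (log2 fold change 1.90 ± 0.17, adjusted p = 1.36e-07), and Uhrf1, which maintains DNA methylation at replication, at 2.65, 1.93 and 1.85 CPM in moMs and 20.04, 30.2 and 20.2 CPM in matIMs. The groups did not overlap for these 2 genes. Mcm5 and Mcm7 rose by 1.73 and 1.55 and Tyms by 0.98, while Pcna did not pass (0.20 ± 0.18). Of the G2/M genes, Tpx2, Top2a, Tacc3 and Cks1b rose by 2.19, 1.86, 1.083 and 1.51, and Cdk1 and Nusap1 by 1.59 and 2.04. Top2a went from 2.902 ± 0.576 CPM in moMs to 10.5 ± 2.205 CPM in matIMs. The 3 that fell, Hmgb2, Tmpo and Lbr (-0.80, -0.78 and -0.84), are abundant nuclear proteins expressed outside division as well, and they numbered 1 without moM replicate 3 or matIM replicate 2. Mki67 had overlapping groups, at 24.9, 31.6 and 20.9 CPM in moMs and 39.8, 43.3 and 27.8 CPM in matIMs, and did not pass. Summed over the list, G2/M genes were at 1370, 1349 and 1400 CPM in moMs and 1429, 1323 and 1367 CPM in matIMs, and S phase genes at 631.8, 693.8 and 654 CPM and at 1005, 966.9 and 901.7 CPM.

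Among 32 lineage transcription factors, 10 rose and 7 fell (median log2 fold change 0.09), and with mouse as a block 11 rose and 13 fell. The factors of dendritic cells Zbtb46, Irf4 and Batf3 rose by 5.13, 2.40 and 1.13, and the B cell and plasmacytoid factor Spib by 5.48 from 0.372 ± 0.193 CPM in moMs to 16.6 ± 3.17 CPM in matIMs. The factors of monocytes and macrophages Cebpb, Zeb2 and Maf fell by 1.28, 1.17 and 1.51. Cebpb was at 1868, 1619.6 and 1959.7 CPM in moMs and 613, 898 and 728 CPM in matIMs, and the groups did not overlap. Spi1 (PU.1), which both lineages need, and Cebpa did not pass (-0.19 ± 0.19 and -0.54 ± 0.20), and Cebpa was called with mouse as a block (adjusted p = 0.0196). Cebpa was also called with the 6 libraries or the 9 Ezr-KOm libraries alone and without matIM replicate 1.

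**Figure D3:**
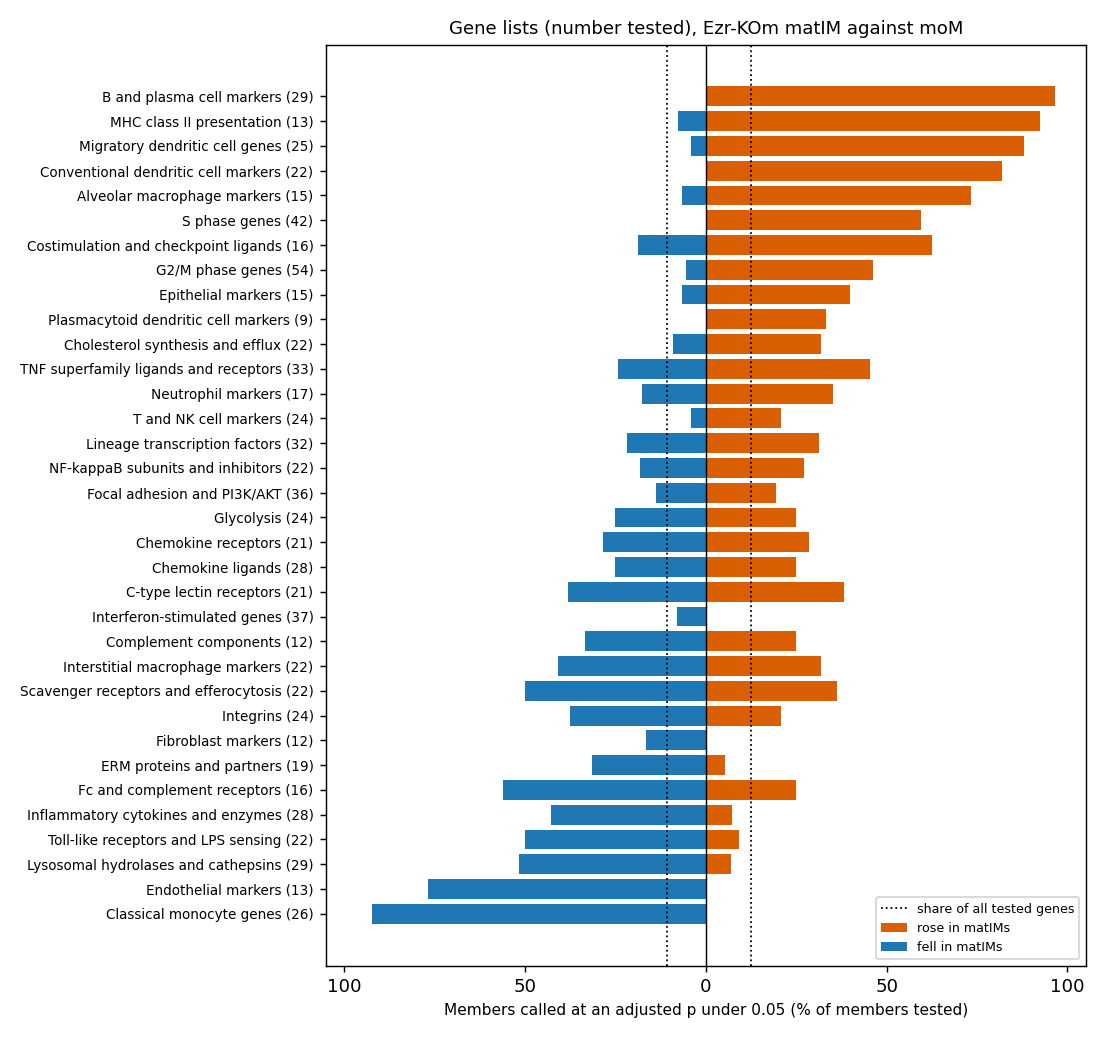
Share of the tested members of each gene list that rose (right) or fell (left) in Ezr-KOm matIMs against moMs at an adjusted p under 0.05, as percent of the members tested, whose number stands in brackets. The dotted lines mark the shares among all tested genes (12.5% rose and 10.7% fell). B and plasma cell, MHC class II and dendritic cell lists reach furthest to the right and the classical monocyte list furthest to the left. The MHC class II and classical monocyte lists include genes of the gate.

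Markers of other cell types were measured in the same libraries. Of these cell types, the CD11b gate would remove most B and T cells, the CD11c gate alveolar macrophages and dendritic cells, the granulocyte gate neutrophils, and the CD45 gate epithelial cells, endothelial cells and fibroblasts. Of 29 B and plasma cell markers, 28 rose and 0 fell (median log2 fold change 6.41, or 5.56 with the 7 genes at 0 in moMs set to their lower bound). Of 168 tested immunoglobulin gene segments, 148 rose and 0 fell (median 8.54, or 4.87 with the 111 segments at 0 in moMs set to their lower bound), and their summed level was 101.7, 85 and 119 CPM in moMs and 4720, 3420 and 1950 CPM in matIMs. These segments are a multigene family, so counts of single segments are uncertain. Igha, the heavy chain of IgA, was at 3.26, 2.82 and 3.35 CPM in moMs and 1844, 1151 and 619 CPM in matIMs, and Cd79a, a chain of the B cell receptor, at 0.392, 0.386 and 0.837 CPM in moMs and 37.8, 29.3 and 70.6 CPM in matIMs. The order of the matIM libraries differed between these genes, with replicate 1 highest for Igha and replicate 3 highest for Cd79a. Cd79b rose by 1.52. Pax5, the B cell factor, had 0 counts in the moM libraries and was at least 15.9-fold higher in matIMs, against a floor of 3 counts per library. Members of the lists above that B cells express, among them H2-Ob, Cxcr5, Cr2, Fcer2a, Spib and Tnfrsf13c, moved with them, and the part of B cells in those changes was not tested.

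Alveolar macrophage markers rose in 11 and fell in 1 of 15 members. Siglecf and Car4 rose by 1.61 and 1.43, Marco and Plet1 by 4.80 and 4.14, and Fabp4 by 2.51. Chil3, which monocytes also express, was the member that fell. Siglecf was at 2.697, 2.04 and 3.04 CPM in moMs and 8.32, 7.29 and 8.09 CPM in matIMs, a low level in both groups, and the summed level of the list fell with Chil3 from 5693, 8471 and 8888 CPM in moMs to 1316, 1409 and 1269 CPM in matIMs. Of 24 T and NK cell markers, 5 rose and 1 fell (25% called, beside 23.3% of all tested genes). Ccl5 was at 128, 28.96 and 71 CPM in moMs and 701, 957 and 707 CPM in matIMs. It made up most of the summed level of the list in matIMs. That level was 283.8, 123.5 and 181.6 CPM in moMs and 820.4, 1065 and 903 CPM in matIMs. Cd4 and Tbx21, both found in myeloid cells too, rose by 2.94 and 2.10, and Klrb1c (NK1.1) fell by 1.09. The T cell receptor chain genes Cd3e, Cd3d and Cd3g did not pass (0.09 ± 0.32, 0.08 ± 0.41 and 0.05 ± 0.33). With mouse as a block 2 of the list fell, as without matIM replicate 3, and 3 rose without moM replicate 3.

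Of 17 neutrophil markers, 6 rose and 3 fell, and their summed level was 996, 1075 and 1236 CPM in moMs and 751, 847 and 954 CPM in matIMs. Retnlg, Mmp9 and S100a9 rose by 3.41, 3.14 and 2.27, S100a8 did not pass (0.29 ± 0.31), and Mmp8 fell. S100a9 was at 20.6, 10.5 and 12.9 CPM in moMs and 46.7, 54.2 and 111 CPM in matIMs. Elane, neutrophil elastase, had 0 counts in the matIM libraries and was at least 5.99-fold lower there, against the floor of 3 counts per library. Epithelial markers rose in 6 and fell in 1 of 15 members. The surfactant genes Sftpc, Sftpb and Sftpa1 rose by 1.97, 2.06 and 2.04, and Epcam and Slc34a2 by 4.91 and 2.15, while Hopx fell by 1.495. Endothelial markers fell in 10 and rose in 0 of 13 members (median log2 fold change -1.55). Their summed level was 257.2, 197.8 and 179.6 CPM in moMs and 138.4, 118.6 and 129.1 CPM in matIMs. Tie1, Tmem100, Tek, Ramp2 and Cdh5 fell by 2.04, 1.41, 1.67, 1.40 and 1.57, and Pecam1 and Kdr did not pass, though Kdr was called with mouse as a block (adjusted p = 0.0214). Fibroblast markers fell in 2 and rose in 0 of 12 members, and fell in 5 with mouse as a block. Without the block, 16.7% of them were called, beside 23.3% of all tested genes. Col3a1 and Mfap4 fell by 0.91 and 0.69, and Fbn1 (adjusted p = 0.0555), Col1a1 (adjusted p = 0.0725) and Col1a2 did not pass. With the block Fbn1 and Col1a1 were called as well (adjusted p = 0.0257 and 0.0393). Fbn1 was also called by DESeq2 and without matIM replicate 1, and Col1a1 with the 6 libraries alone. No fibroblast marker was called without moM replicate 1 or without matIM replicate 2, and 1 was called without moM replicate 2, moM replicate 3 or matIM replicate 3. The part of these cell types in the differences above was not tested.

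**Figure D4:**
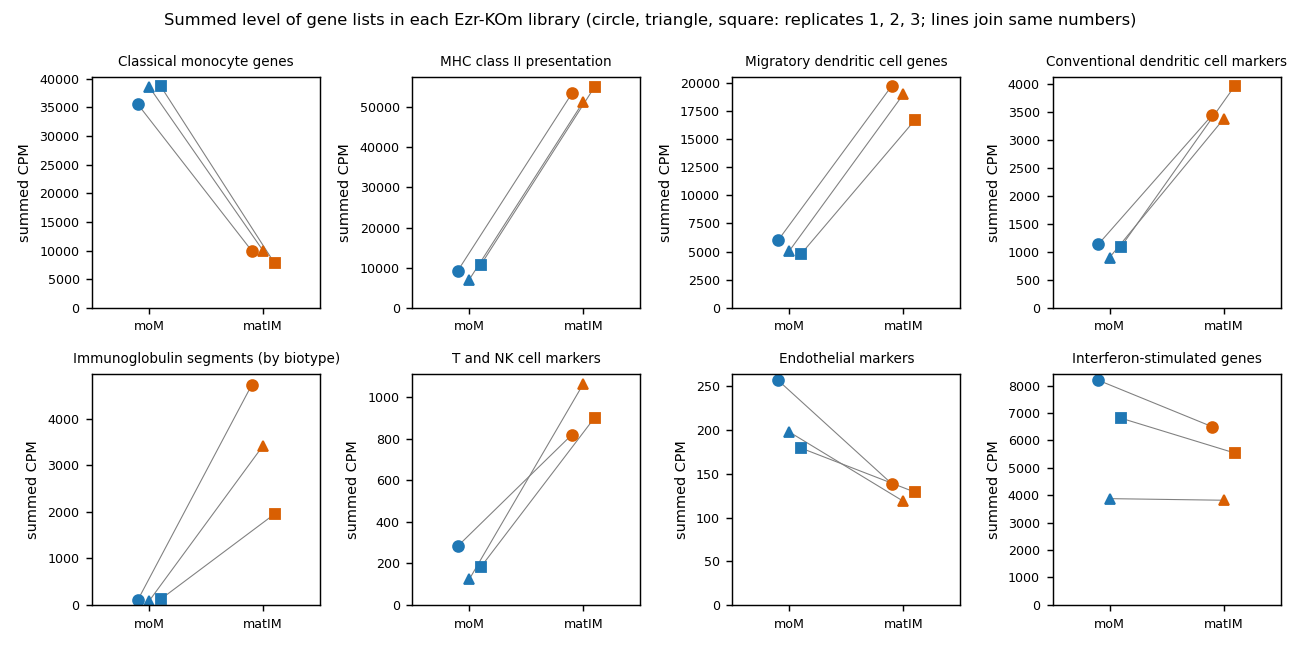
Summed CPM (linear axes from 0) of 8 gene lists in the 6 Ezr-KOm libraries, with marker shape for the replicate number and grey lines between libraries of the same number. Monocyte and endothelial sums are lower in matIMs. MHC class II, dendritic cell, immunoglobulin and T and NK cell sums are higher, and Ccl5 makes up most of the T and NK cell sum of matIMs. The interferon-stimulated sum is lowest in replicate 2 of both populations.

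The same contrast in WT mice shares no library with the one in Ezr-KOm mice. In WT mice 3926 genes were called (24.8% of those tested), of which 2116 rose and 1810 fell. The number called in both genotypes in the same direction was 2971, which is 80.8% of the calls in Ezr-KOm mice and 75.7% of those in WT mice, and 0 genes were called in opposite directions. Across the genes called in Ezr-KOm mice, the log2 fold changes of the 2 genotypes had a Pearson r of 0.946 and a slope (WT on Ezr-KOm) of 0.942, and r was 0.891 over all tested genes. Genes are not independent replicates, and these values describe likeness without a test. The median size of change among the genes called in both was log2 1.41 in Ezr-KOm mice and 1.40 in WT mice. The top of the ranking was alike. In WT mice, Ccl22, Fscn1 and Ccr7 changed by 8.74, 9.17 and 7.08, and Chil3, Thbs1 and Cd177 by -4.13, -3.86 and -5.66.

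The difference between the genotypes was tested as an interaction. At an adjusted p under 0.05, 0 genes were called by edgeR (smallest adjusted p = 0.99991), 268 had an unadjusted p under 0.05 (1.70% of those tested), and DESeq2 called 0 with 342 at an unadjusted p under 0.05. Of the 708 genes called in Ezr-KOm mice alone, 680 had the same sign in WT mice, so a call in 1 genotype does not show a difference between them. Ezr was among the genes with the smallest p. It went down by 0.78 in Ezr-KOm mice and up by 0.32 in WT mice on the log2 scale (the latter not called), a difference of -1.10 ± 0.34 (unadjusted p = 0.00455). With mouse as a block it had the smallest p of all genes in the interaction (difference -1.09 ± 0.16, adjusted p = 0.0665).

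Of the 3 genes with the smallest p whose change was higher in Ezr-KOm mice, Tnfsf13b encodes BAFF, the survival factor of B cells. It was at 5.87, 4.86 and 6.65 CPM in moMs and 12.7, 11.4 and 15.3 CPM in matIMs of Ezr-KOm mice, and at 10.1, 9.86 and 10.3 CPM in moMs and 10.2, 11.6 and 14.1 CPM in matIMs of WT mice. The groups were apart in Ezr-KOm mice (log2 fold change 1.18 ± 0.19) and the gene was not called in WT mice (0.25), with a difference of 0.94 ± 0.26 (unadjusted p = 0.002003). Fah, the last enzyme of tyrosine breakdown, rose by 5.33 in Ezr-KOm and 3.66 in WT mice. Ccser1 had 0 counts in the Ezr-KOm moMs and was at least 11.2-fold higher in their matIMs, at 0, 0 and 0 CPM in moMs and 1.11, 1.89 and 1.22 CPM in matIMs. In the other direction, the Ras-like GTPase gene Rasd2 was at 0.304, 0.231 and 0.132 CPM in moMs and 0.359, 0.826 and 0.545 CPM in matIMs of Ezr-KOm mice and at 0, 0 and 0 CPM in moMs and 0.355, 0.342 and 0.671 CPM in matIMs of WT mice. Lrp3 had 0 counts in the Ezr-KOm matIMs and was at least 1.87-fold lower there than in moMs, at under 1 CPM in each library. None of these 5 genes had an adjusted p below 0.99991 without the block.

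**Figure D5:**
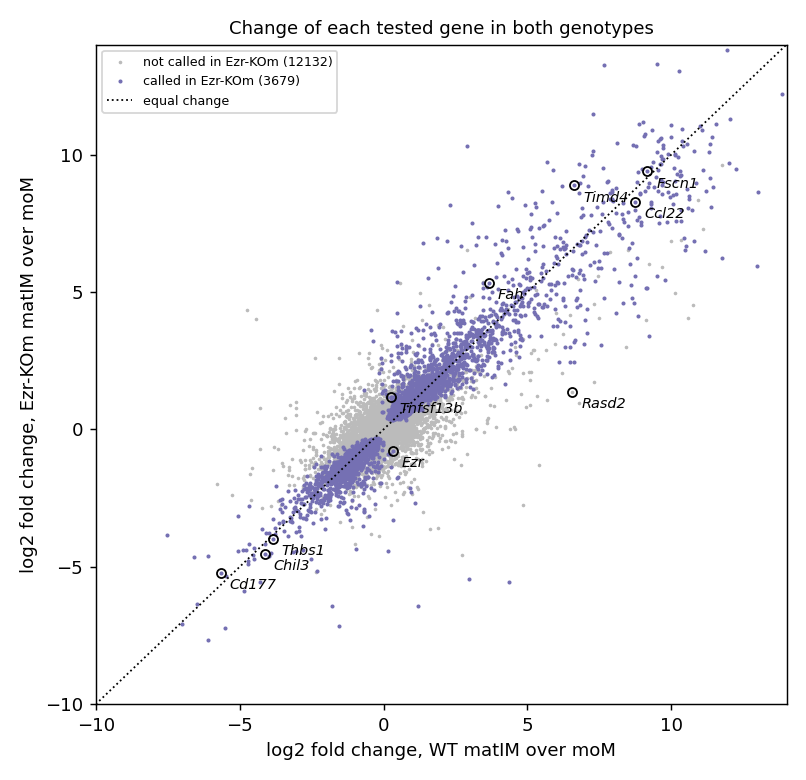
Log2 fold change of matIMs over moMs for each of the 15811 tested genes in WT mice (x) and Ezr-KOm mice (y), with the 3679 genes called in Ezr-KOm mice in colour and a dotted line of equal change. Called genes lie along the line, and Ezr lies below it, with a fall in Ezr-KOm mice and a higher mean in WT matIMs.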

How the data were processed

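RNA of sorted lung macrophages was reverse transcribed from low input with the SMART-Seq v4 kit and sequenced in pairs. The authors aligned the reads with STAR 2.7.9a to GRCm39 and deposited raw counts per gene from its gene counting for all 18 libraries. Which strand column was taken is not given in the sources used here, so reads of overlapping or near-identical genes may be shared. Per the labels the groups have 3 libraries each, and the study used 3 mice per genotype. All 18 sample columns were mapped.

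From the counts, edgeR 4.0.16 in R 4.3.3 was run with filterByExpr (smallest count 10), TMM normalization and the quasi-likelihood test over the 6 groups of 18 libraries, with contrasts of matIM against moM in each genotype and their difference, and Benjamini-Hochberg adjustment over the 15811 genes tested. The study's own rule (an absolute log2 fold change over 0.75 at an unadjusted p under 0.05) was an alternative. Same-numbered matIM and moM libraries correlated in their deviations from the group means, with r of 0.382, 0.224 and 0.175 in Ezr-KOm mice. In WT mice r was 0.331, 0.124 and 0.345, and between different numbers it was 0.051 at most. Deviations sum to 0 within a group, so a positive r at the same number lowers the others. The r of same and different numbers are thus not independent. With same-numbered libraries taken as 1 mouse, a fit with mouse as a block was run as well. No pair of replicates held identical values. Other alternatives were DESeq2 1.42.0, other scalings and filters, fewer libraries in the fit, and leaving out each library. On simulated counts of 15811 genes with 200 changed by log2 2 between matIMs and moMs of Ezr-KOm mice, the test recovered 83.5%, and 5.11% of its calls were false. The simulated libraries were independent and used the fitted dispersions, and only genes with at least 10 expected counts were changed. These rates thus do not cover correlated libraries, changed genes near 0 or a contrast with 23.3% of genes called. Counting intervals are at 95% and, like the floor of 3 counts, cover counting error only.

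Genes were named by a rule: the 15 largest changes and the 10 smallest p in each direction among called genes with non-overlapping groups and a mean of at least 10 CPM in the higher group (immunoglobulin and T cell receptor segments, pseudogenes and clone-named genes left out), the 4 members with the smallest p and the first 3 of each of 34 lists, and the 3 smallest p of the interaction in each direction. Other genes named were chosen after their values were seen, and the comparison and the lists were chosen with earlier results of these data known. Promoters were read from GRCm39 with Gencode starts. Figures were drawn with matplotlib 3.10.9. A few genes that the rule names are not reported here.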

Additional observations from a re-analysis of the deposited data

Results flagged for a closer look

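For 2 genes named above, the 3 same-numbered pairs of libraries moved one way in Ezr-KOm mice and the opposite way in WT mice. Ezr had a difference between the genotypes of -1.10 ± 0.34 on the log2 scale (unadjusted p = 0.00455, adjusted p = 0.99991 in edgeR's interaction test), with matIMs below moMs in each Ezr-KOm pair and above in each WT pair. Ezr is the deleted gene, and its reads in Ezr-KOm mice are those that remain. Itga2b, the integrin chain of platelets, differed by 1.21 ± 0.61 (unadjusted p = 0.0639, adjusted p = 0.99991). It was at 1.22, 1.47 and 1.98 CPM in moMs and 2.22, 2.34 and 2.73 CPM in matIMs of Ezr-KOm mice, and at 1.423, 2.53 and 1.38 CPM in moMs and 0.665, 2.01 and 0.932 CPM in matIMs of WT mice. The difference between genotypes did not pass the adjusted threshold for either gene.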

How the results depend on the processing

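The 3679 calls numbered 3600 to 3776 under upper-quartile scaling, scaling by totals, robust estimation, no filter or the 6 libraries alone, 3453 with the 9 Ezr-KOm libraries, 4150 by DESeq2, 4783 with the replicate block and 2935 to 3145 without 1 library, and no called gene changed sign. With at least 10 counts in every library, 11444 genes were tested and the rises numbered 1322 in Ezr-KOm and 1399 in WT mice (main 1984 and 2116). WT calls numbered 3041 to 3469 without 1 library and 5002 with the block. In the interaction, the study's rule gave 240 genes (117 higher and 123 lower), and the block gave 0 calls with 478 genes at an unadjusted p under 0.05 and a smallest adjusted p of 0.0665. Upper-quartile scaling made 59.1% of calls rises, and scaling by totals 66.1% in Ezr-KOm and 64.4% in WT mice (main 53.9% in both), with a shift of the median gene of 0.132 and 0.111.

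Of 291 named genes, 229 kept their direction and their side of the threshold under each alternative. Genes that were not called and changed sign without 1 library ranged as follows on the log2 scale: Ccr9 -0.055 to 0.49, Cd24a -0.14 to 0.42, Cd3d -0.16 to 0.22, Cd3e -0.10 to 0.32, Cd3g -0.19 to 0.26, Clec2d -0.26 to 0.48, Ifit1 -0.22 to 0.32, Ifit2 -0.58 to 0.14, Ifit3 -0.21 to 0.37, Irf8 -0.18 to 0.20, Oasl1 -0.0071 to 0.68, Rel -0.055 to 0.48, S100a8 -0.17 to 0.60, Tnf -0.66 to 0.047. With the block Cd3g was at -0.019 and with libraries scaled by totals Hk1 was at 0.050. The causes were not tested. Upper-quartile scaling took the edgeR call from Hmgb2, Lgals9, Mfap4, Oas3 and Ptpn6. Scaling by totals did so for these and for Birc3, Tln1, Tmpo and Vcl. Robust estimation did so for Hmgb2 and Oas3. With no filter Hmgb2, Lgals9 and Oas3 lost it, and with 10 counts required per library these and Mfap4. The 6 libraries alone lost Lgals9, Oas3 and Sftpb, and the 9 Ezr-KOm libraries Ezr, Hmgb2, Ifi204, Lgals9 and Oas3. For named genes that lost their call without 1 library, adjusted p-values in edgeR were as follows. Without moM replicate 2, they were those of Hmgb2 (0.0831), Hmgcs1 (0.113), Lta (0.0506), Mertk (0.0916), Mfap4 (0.0624), Ptpn6 (0.0647), Sftpb (0.0596), Tln1 (0.05), Tlr11 (0.0698) and Tlr12 (0.0561). Without moM replicate 3, they were those of Ezr (0.0834), Fcgr2b (0.0674), Hmgb2 (0.16), Il12a (0.081), Lgals9 (0.0791), Mfap4 (0.055), Oas3 (0.109), Ptpn6 (0.116), Sftpb (0.074), Tlr12 (0.0523) and Tmpo (0.0733). Without matIM replicate 1, they were those of Hmgcs1 (0.0505), Lrp3 (0.0525), Mfap4 (0.081), Ptpn6 (0.105), Sftpb (0.0607), Tln1 (0.0637) and Tmpo (0.0674). Without moM replicate 1, they were those of Clec1a (0.0842), Col3a1 (0.0983), Cxcl2 (0.0608), Dhcr7 (0.0549), Ezr (0.114), Hmgb2 (0.055), Ifi204 (0.0646), Il12a (0.0709), Lgals9 (0.251), Mfap4 (0.155), Oas3 (0.235) and Tlr11 (0.0644). Without matIM replicate 2, they were those of Col3a1 (0.114), Ezr (0.125), Fcgr2b (0.0665), Hmgb2 (0.19), Hmgcs1 (0.0587), Ifi204 (0.0762), Il12a (0.114), Il1b (0.0666), Lgals9 (0.211), Lrp3 (0.0547), Mfap4 (0.0859), Oas3 (0.204), Ptpn6 (0.0824), Tlr11 (0.055) and Tmpo (0.0519). Without matIM replicate 3, they were those of Cxcl2 (0.0565), Dhcr7 (0.0699), Hmgb2 (0.169), Hmgcs1 (0.0581), Il12a (0.12), Lgals9 (0.134), Mertk (0.0674), Mfap4 (0.133), Oas3 (0.134), Tln1 (0.0765) and Vcl (0.0793).

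Depth limits genes of low level: 5443 genes were not tested, and with at least 10 counts in every library 5 B and plasma cell markers were left that rose, since genes near 0 in moMs are not tested there.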
